A study of Myotis pilosus with 4 samples.

Results

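The microRNA miR-3958 was described here by its 2 arms, miR-3958-3p and miR-3958-5p, which are 2 of the mature miRNAs (119 conserved and 77 bat-specific) listed for the bat Myotis ricketti (Myotis pilosus in the sample records). The arms were chosen because the 3p arm was abundant in brain, so that abundance is a description and not a finding. A member was counted first as the tag identical to its listed sequence, and then as all tags that begin with its first 18 nt. A tag is a distinct clean sequence, and its count is the number of reads that had it.

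Small RNA was sequenced from the brain of hibernating bats (HB), the brain of active bats, called aroused in the sample records (AB), the white adipose tissue (WAT) of the hibernating bats (HA) and the WAT of the active bats (AA). All animals were adult and wild-caught, and each library was a pool of RNA from 3 bats, with the same bats behind the brain and WAT pools of a state. Because the active bats were taken in autumn and the hibernating bats in late winter, state and season cannot be told apart. No condition was replicated, so no test was possible, and each interval below covers counting error alone.

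The libraries held from 10007650 to 12159756 clean reads, of which 1520859 (HA) to 2546410 (HB) were identical to a listed miRNA. Brain markers were high in both brain libraries, with 415697 (HB) and 449967 (AB) reads of miR-124a-3p, a neuronal miRNA, against 286 (HA) and 292 (AA). The muscle miRNA miR-1-3p was high in WAT: it had 196202 (HA) and 202291 (AA) reads there, against 21968 (HB) and 14019 (AB) in brain. Summed over their lists, 3 muscle miRNAs had 17409 to 18253 RPM (reads per 1000000 clean reads) in WAT, 3 miRNAs of stroma and vessels 13586 to 40201 and 4 blood miRNAs 253 to 268, against 1605 to 1948, 527 to 805 and 28.1 to 62.4 RPM in brain. In WAT, miR-1-3p made up most of the muscle sum, with 16998 (HA) and 17687 (AA) RPM. Most of the stroma and vessel sum there was miR-199-3p, with 13529 (HA) and 40099 (AA) RPM.

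A miRNA is cut from a hairpin precursor as a duplex of 2 strands, the 5p and the 3p arm. One strand is usually loaded into an Argonaute protein and the other is degraded, and the loaded strand finds its targets mainly through its seed, bases 2 to 8. A change at the 5′ end therefore changes the targets, whereas a change at the 3′ end mostly leaves the seed as it is and often comes from trimming or from bases added after cutting. The listed hairpin of miR-3958 lies, in the hairpin list of the study, on the same genome scaffold as those of miR-154, miR-381, miR-432, miR-485 and miR-539. The study's list of mature miRNAs gives the hairpin of both arms another name (mir-3954), so the placement rests on the hairpin list, which pairs these 2 mature sequences with mir-3958. In other mammals these belong to the large miRNA cluster of the imprinted DLK1-DIO3 region, which is transcribed from the maternal chromosome and is known for its expression in brain.

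The listed sequences of both arms follow, with the seed in capitals, because every count below rests on them.
miR-3958-3p: aGATATTGcacggttgatct
miR-3958-5p: aGGTTGTCcgtgatgtatttgc
The 3p arm is listed with 20 nt and the 5p arm with 22 nt. None of the other listed miRNAs had the seed of either arm. The 3p arm shared its longest run of bases with miR-363-3p, 10 nt from base 5 of miR-3958-3p and from base 2 of miR-363-3p, and shared 8 nt from base 4 with miR-92a-3p and miR-92b-3p, where the run starts at base 1. These runs lie at another place relative to the 5′ end, so the seeds differ. A fold of the listed arms against each other (RNAduplex) gave 16 base pairs at -15.8 kcal/mol, from base 1 to base 20 of the 5p arm. The 22-nt form of the 3p arm shown further on gave 16 pairs at -15.9 kcal/mol.

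miR-3958-3p, the arm that accumulated, had 320030 (HB), 226127 (AB), 6683 (HA) and 11177 (AA) reads. In RPM, brain had 26319 in HB (95% exact counting interval 26229 to 26409) and 22595 in AB (22503 to 22688), while WAT had 579 in HA (565 to 593) and 977 in AA (959 to 996). Both brain libraries lay far above both WAT libraries, and no interval overlapped another. The single 20-nt tag made up 2.63% (HB) and 2.26% (AB) of all clean reads in brain, against 0.0579% (HA) and 0.0977% (AA) in WAT.

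Among all listed miRNAs, miR-3958-3p ranked 3 (HB), 4 (AB), 13 (HA) and 12 (AA). It took 12.6% (HB) and 9.41% (AB) of the reads of the listed tags in brain, but 0.439% (HA) and 0.467% (AA) in WAT. The most abundant listed tags were miR-29-3p in HB (799130 reads) and in HA (373410), miR-124a-3p in AB (449967) and miR-199-3p, a miRNA of stroma and vessels, in AA (458628). With all tags that begin with the first 18 nt, miR-3958-3p had 623703 reads (HB), 470834 (AB), 17727 (HA) and 23821 (AA), and ranked 4, 5, 14 and 15 among the 177 distinct first 18 nt of the list, since 33 listed miRNAs share these bases with another one. The order of the libraries remained the same, whereas the level in RPM rose to 51292 (HB), 47047 (AB), 1536 (HA) and 2083 (AA).

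**Figure D1:**
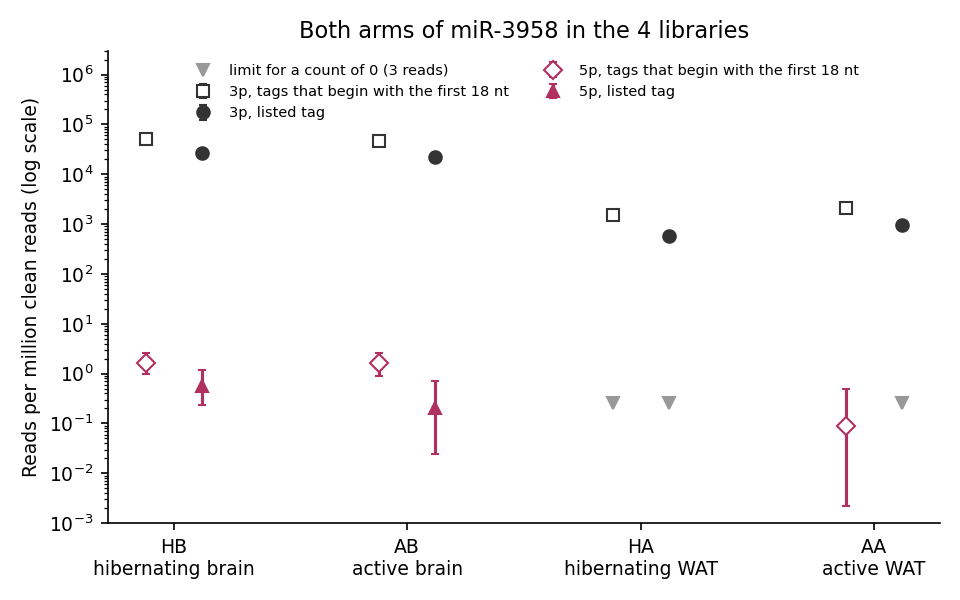
RPM (log axis) of both arms of miR-3958 in the 4 libraries. Black circles (3p) and upright triangles (5p) are the listed tags, and open squares and diamonds all tags that begin with the first 18 nt. Bars are 95% counting intervals, and grey inverted triangles the floor of 3 reads given to a count of 0. The listed 3p tag stood at 26319 (HB), 22595 (AB), 579 (HA) and 977 (AA), and the 5p arm stayed near or below 1.64.

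miR-3958-5p, the arm that was hardly kept, had 7 reads in HB, 2 in AB and 0 in both WAT libraries. A count of 0 allows up to 3 reads, or 0.26 RPM in HA and 0.262 in AA. With all tags that begin with its first 18 nt, the 5p arm had 20 reads (HB), 16 (AB), 0 (HA) and 1 (AA). The difference between HB and AB in the listed tag (log2 ratio 1.82, interval -0.58 to 5.12) was not detectable at this depth, since the interval held 0.

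The listed 22-nt sequence was not the commonest form of the 5p arm. Tags of this arm came in 9 forms with 40 reads, and the listed form had 9 of them, or 22.5%. A 23-nt form with 1 more T had 16 reads, 6 in HB and 10 in AB, and a 21-nt form had 7 reads, 4 in HB, 2 in AB and the single read in AA. All 3 forms begin at the same base, so they share 1 seed.
23-nt form of the 5p arm: aGGTTGTCcgtgatgtatttgct
21-nt form of the 5p arm: aGGTTGTCcgtgatgtatttg

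The balance of the arms was therefore almost wholly on the 3p side. With the 5p arm in parts per 1000000 (ppm) of the reads of both arms, the listed tags gave 21.9 ppm in HB (interval 8.79 to 45.1) and 8.84 ppm in AB (1.07 to 31.9). In WAT the count was 0, which allows up to 449 ppm (HA) and 268 ppm (AA). With tags that begin with the first 18 nt, the share was 32.1 ppm in HB (19.6 to 49.5), 34.0 ppm in AB (19.4 to 55.2) and 42.0 ppm in AA (1.06 to 234). These intervals overlapped, and no difference in arm balance between states or tissues was detectable at this depth.

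Of the 46 hairpins with both arms among the listed miRNAs, miR-3958 had the second most one-sided balance by reads summed over the libraries. The major arm exceeded the minor arm 62669-fold in listed tags, against a median of 77.4-fold over the hairpins. The most one-sided was the hairpin that the study lists as miR-7b, at 70259-fold. The miR-7 names used here are the study's own, and the family they belong to was not checked. With tags that begin with the first 18 nt, the fold of miR-3958 was 30705. No place is given for that fold, since miR-7b-5p shares these bases with miR-7d-5p and cannot be counted apart from it. Hairpins of the same scaffold were less one-sided under both rules. In listed tags and then in first-18-nt tags, the fold was 681 and 1346 for miR-432, with the 5p arm the major one, 303 and 5700 for a bat-specific hairpin, 1.41 and 1.55 for miR-539 and 1.13 and 1.28 for miR-381.

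Hibernating and active brain were compared by the log2 ratio of the listed tags, scaled by TMM over all listed miRNAs (a scaling that takes the typical miRNA as unchanged). miR-3958-3p was 1.42-fold higher in HB than in AB, a log2 ratio of 0.51 (counting interval 0.50 to 0.52). This was place 58 from the top among 153 miRNAs with a ratio, whose median was 0.0091, and it did not reach a log2 ratio of 1, a size that 40.5% of the miRNAs with 10 or more reads reached in this comparison, 22.9% upward and 17.6% downward. A value in the upper part of the middle of the distribution is not particular to miR-3958-3p. The brain markers did not go 1 way on the same scale. Of 7 neuronal miRNAs, miR-129-3p (log2 ratio 1.25), miR-153-5p (0.63), miR-124-5p (0.57) and miR-153-3p (0.10) were above 0, and miR-124a-3p (-0.11), miR-9-3p (-0.49) and miR-129-5p (-0.65) below it. Their sum, 37227 RPM in HB and 46782 in AB, was mostly miR-124a-3p (34186 and 44962 RPM). Of the 2 oligodendrocyte miRNAs, miR-219-3p had a log2 ratio of -0.30 and miR-219-5p of 0.90, with sums of 3414 and 5016 RPM. The part of these cells in the ratio of miR-3958-3p was not tested.

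In WAT, miR-3958-3p was lower in HA than in AA, with a log2 ratio of -0.41 (counting interval -0.45 to -0.36). The median of 140 miRNAs with a ratio was itself -0.29, so the distance from it was -0.12, and miR-3958-3p took place 79. A log2 ratio of 1 in size, which 49.3% of the miRNAs with 10 or more reads had here (20.4% higher and 28.9% lower in HA), was not reached. Scaled by TMM over the conserved miRNAs alone, the ratio turned to 0.37. A scaling moves every miRNA by the same amount, so the distance from the median stays at -0.12 by construction. By first-18-nt tags and by tags with bases 2 to 17, that distance was -0.27 and -0.24. The neuronal miRNAs summed to 128 RPM in HA and 217 in AA, with 3 of the 7 at 0 in both libraries. Most of this sum was miR-129-3p (95.6 and 180 RPM), while miR-124a-3p was level (24.8 and 25.5 RPM). On the TMM scale, miR-9-3p (log2 ratio -1.54, with 3 and 11 reads), miR-129-3p (-0.56) and miR-129-5p (-0.14) were below 0, and miR-124a-3p (0.31) above it. The part of these miRNAs in the result was not tested.

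In bulk tissue, fewer cells of a type and less of a miRNA per cell cannot be told apart. The log2 ratio of states was 0.92 higher in brain than in WAT (interval 0.87 to 0.96). It ranged from 0.27 to 0.98 over the other scalings and count rules, so its size depended on the scaling while its direction did not.

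**Figure D2:**
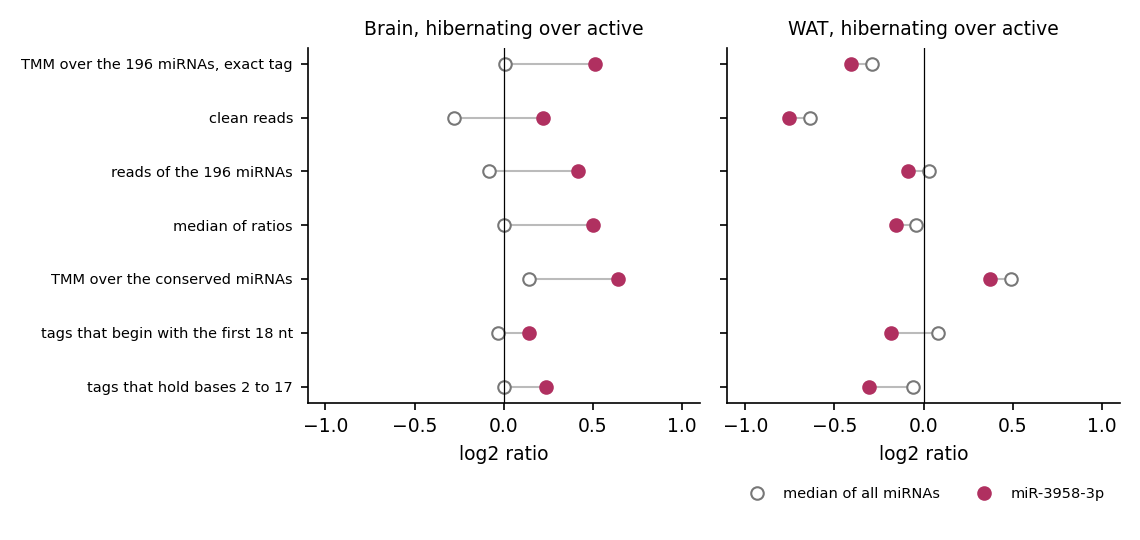
Log2 ratio of hibernating over active (x axis) for miR-3958-3p (filled) and the median of all miRNAs with a ratio (open), in brain (left) and WAT (right), under each scaling and count rule (rows). With listed tags miR-3958-3p lay 0.50 above the median in brain and 0.12 below it in WAT, distances that no scaling can change. By first-18-nt tags and by tags with bases 2 to 17, the distance was 0.18 and 0.24 in brain, and -0.27 and -0.24 in WAT. The sign against 0 in WAT changed with the scaling.

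Between tissues, miR-3958-3p was 21.7-fold higher in AB than in AA (log2 ratio 4.44, interval 4.41 to 4.47) and 42.6-fold higher in HB than in HA (5.41, interval 5.38 to 5.45). These values belong to the abundance that chose it and are given as a description. In the first comparison 74.8% of the miRNAs with 10 or more reads reached a log2 ratio of 1 in size (38.4% higher and 36.5% lower in AB), and in the second 76.1% (40.9% higher and 35.2% lower in HB). Among 16 miRNAs with 10000 or more reads in brain, 4 had a higher ratio of AB over AA, namely miR-124a-3p, miR-124b-3p, miR-219-3p and miR-7c-5p, and the first 3 of these also had a higher ratio of HB over HA. The listed tags of miR-124a-3p and miR-124b-3p share their first 18 nt, so they are close copies.

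The level in WAT, in RPM, was 4.32% of that in brain in the active state and 2.20% in hibernation. The neuronal miRNAs together reached 0.465% and 0.345% of their brain level in the same pairs, and the oligodendrocyte miRNAs 0.0418% and 0.0305%. The share of miR-3958-3p in WAT was thus above that of either brain marker list as a sum, where the neuronal sum is mostly miR-124a-3p. Single neuronal miRNAs differed from their list. With the RPM of both states added, WAT reached 20.6% of brain for miR-129-5p and 6.51% for miR-129-3p, above the 3.18% of miR-3958-3p. It reached 0.265% for miR-9-3p and 0.0636% for miR-124a-3p. miR-129-3p had 1104 (HA) and 2060 (AA) reads in WAT against 34053 (HB) and 14360 (AB) in brain, whereas miR-153-3p, miR-153-5p and miR-124-5p had 0 in both WAT libraries. RPM rests on all clean reads, and the paper reported a larger share of rRNA reads in HA than in the other libraries. The log2 ratio of states for miR-3958-3p in brain minus that in WAT was 0.98 by clean reads. By reads of the listed miRNAs it was 0.50, so the gap between 4.32% and 2.20% depends on the denominator.

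The 3′ end of miR-3958-3p varied far more than its 5′ end. Tags that begin with its first 18 nt came in 295 forms with 1136085 reads, of which 8 forms held 99.2%. The 5 that carry the differences between tissues are printed with the seed in capitals.
18-nt form: aGATATTGcacggttgat
19-nt form: aGATATTGcacggttgatc
listed 20-nt form: aGATATTGcacggttgatct
22-nt form ending in T: aGATATTGcacggttgatctct
22-nt form ending in A: aGATATTGcacggttgatctca
All of them keep the same seed. The listed form held 51.3% of these reads (HB), 48.0% (AB), 37.7% (HA) and 46.9% (AA), so counting the listed tag alone left out more than it took in 3 of the 4 libraries.

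The 19-nt form, which lacks the last T, was the next most abundant, with 195813 reads (HB), 161756 (AB), 5048 (HA) and 6811 (AA). It made up 31.4% and 34.4% of the reads in brain and 28.5% and 28.6% in WAT. The 22-nt form ending in T had 61436 reads (HB), 40389 (AB), 3726 (HA) and 3789 (AA). Its share was 9.85% (HB) and 8.58% (AB) in brain, but 21.02% (HA) and 15.9% (AA) in WAT. The longer form thus took a larger share in WAT than in brain, and a larger share in hibernation than in activity in both tissues.

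Over all 22-nt tags the share was 11.8% in HB (interval 11.7 to 11.8%) and 10.5% in AB (10.4 to 10.6%), whereas WAT had 26.4% in HA (25.8 to 27.1%) and 18.6% in AA (18.1 to 19.1%). The 18-nt and 19-nt tags together were 34.4% (HB), 39.1% (AB), 30.8% (HA) and 31.4% (AA). The 21-nt form was scarce everywhere, with 10482 reads (HB), 5437 (AB), 305 (HA) and 459 (AA), so the lengths fell into a group of 19 to 20 nt and a second peak at 22 nt.

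**Figure D3:**
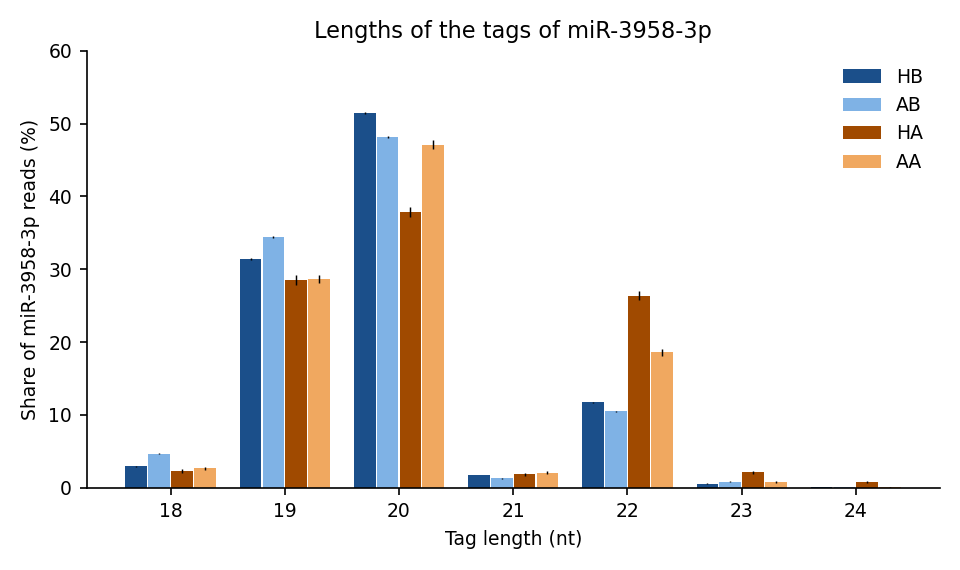
Share of miR-3958-3p reads (y axis, %) by tag length in nt (x axis) among tags that begin with its first 18 nt, for the 4 libraries; bars start at 0 and error bars are 95% counting intervals. The 20-nt tags were the commonest in all 4 libraries, and the 22-nt tags made up 11.8% (HB) and 10.5% (AB) in brain against 26.4% (HA) and 18.6% (AA) in WAT.

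Because the forms differ between libraries, the choice of form changes the ratio of states. Scaled by clean reads, the log2 ratio of HB over AB was 0.22 for the listed form, -0.0054 for the 19-nt form, 0.32 for the 22-nt form ending in T and -0.54 for the 18-nt form. The ratio of HA over AA was -0.76 for the listed form, -0.45 for the 19-nt form, -0.037 for the 22-nt form ending in T and 0.53 for the 22-nt form ending in A. By clean reads, the 22-nt forms in WAT were thus level or higher in hibernation, where the forms of 18 to 20 nt were lower (-0.67 for the 18-nt form). Another scaling moves all forms by the same amount, so the order of the forms holds but their signs against 0 depend on the scaling.

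The mean length of the tags was 19.9 nt (HB), 19.8 (AB), 20.3 (HA) and 20.1 (AA). To see whether such shifts belong to miR-3958-3p or to the libraries, the same was computed for all 32 listed miRNAs with 1000 or more such reads in each library. Between states in WAT, miR-3958-3p was 0.24 nt longer in HA than in AA, close to the median of 0.21 nt, and 28 of the 32 were longer in HA. Between tissues in hibernation it was 0.41 nt longer in HA than in HB, with a median of 0.42 nt and 31 of the 32 longer in HA. These shifts were shared by most miRNAs and are not particular to miR-3958-3p. The 32 include miR-7b-5p and miR-7d-5p, which share their first 18 nt, and with this pair counted once the places of miR-3958-3p were 14 and 16 of 31.

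The other pairs placed it apart from the median. In the active state miR-3958-3p was 0.26 nt longer in WAT than in brain, against a median of 0.007 nt, which was place 3 of the 32 within a range of -0.30 to 0.34 nt. In brain it was 0.085 nt longer in HB than in AB, against a median of -0.11 nt, which was place 5, and 9 of the 32 were longer in HB. With the pair counted once, these places stayed 3 and 5. HA also held the largest number of unique tags, 1160810 against 411552 to 629437 in the other libraries. Without replicates, no spread is available against which to judge these places.

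**Figure D4:**
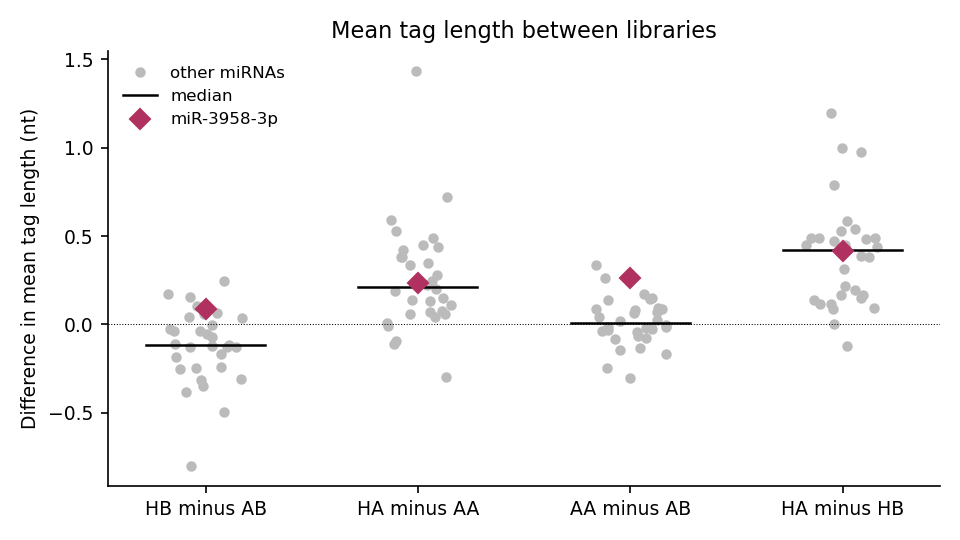
Difference in mean tag length (y axis, nt) between pairs of libraries (x axis) for the 32 miRNAs with 1000 or more reads in each library; grey points are the other miRNAs, spread sideways at random to keep them apart, black lines the medians of the 32 and diamonds miR-3958-3p. miR-3958-3p lay near the median for HA minus AA (0.24 against 0.21 nt) and HA minus HB (0.41 against 0.42 nt), and above it for AA minus AB (0.26 against 0.007 nt).

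The bases after base 18 followed 1 path with a fork at base 22. Base 19 was C in 99.8% of the tags that reached it, base 20 was T in 99.9% and base 21 was C in 98.2%. At base 22, T held 84.3% and A 15.1%, and at base 23, A held 63.6% and T 35.3%. Among the 22-nt tags that share the first 21 bases, A at base 22 made up 15.02% in HB (interval 14.8 to 15.3%) and 15.4% in AB (15.1 to 15.8%), and in WAT 18.5% in HA (17.4 to 19.7%) and 13.3% in AA (12.3 to 14.4%). The brain libraries lay close together, between the highest value (HA) and the lowest (AA). No genome was used here, so bases encoded by the hairpin and bases added later cannot be told apart for A at base 22 and beyond.

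Tags whose last base alone left this path made up 2.16% (HB), 2.25% (AB), 6.02% (HA) and 3.13% (AA). That last base was A in 83.7% of them (HB), 73.0% (AB), 83.4% (HA) and 81.7% (AA). Nearly all of these A ends were the 22-nt form ending in A, with 10909 of 11253 reads (HB), 7410 of 7741 (AB), 854 of 890 (HA) and 586 of 609 (AA). The values thus mostly count that form again, and its larger share in HA is part of the larger share of odd ends there.

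The 5′ end was nearly fixed. Of the tags with bases 2 to 17, or from base 5 on for later starts, 97.6% (HB), 98.0% (AB), 98.3% (HA) and 97.4% (AA) began at the listed first base. A start 1 base later held 1.54% (HB), 1.07% (AB), 0.648% (HA) and 1.35% (AA), and a start 1 base earlier 0.624% (HB), 0.649% (AB), 0.869% (HA) and 0.861% (AA). The base in front was C in 98.1% to 100% of the earlier starts. Both shifts give another seed, in capitals below, which no other listed miRNA has.
start 1 base later, 19 nt: gATATTGCacggttgatct
start 1 base earlier, 21 nt: cAGATATTgcacggttgatct

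The later start, with the end at base 20, had 3209 reads (HB), 1240 (AB), 57 (HA) and 139 (AA). Among the tags that end at base 20, it took 0.989% in HB (interval 0.955 to 1.02%) and 0.544% in AB (0.514 to 0.575%), and in WAT 0.840% in HA (0.637 to 1.09%) and 1.22% in AA (1.03 to 1.44%). It was more frequent in HB than in AB beyond counting error, whereas the intervals of HA and AA overlapped. The earlier start took 0.391% (HB), 0.311% (AB), 0.693% (HA) and 0.693% (AA), higher in both WAT libraries. Tags shorter than 18 nt are not in the files, so a later start that ends before base 19 could not be seen.

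Tags of 20 nt that differ from miR-3958-3p at 1 of the first 18 positions, counted from its 5′ end, had 26153 reads, or 4.43% of these tags and the listed tag together. This was place 16 among 25 listed miRNAs with 10000 or more reads, with a median of 5.27% and a range of 3.12% to 27.5%, so miR-3958-3p did not stand out in this sum. All 54 possible changes had reads. Position 14 had the most, 0.904% of the listed tag, followed by positions 9 (0.621%), 17 (0.541%) and 3 (0.519%).

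The commonest single change was C9T, written with the listed base first, with 2003 reads (HB), 1083 (AB), 28 (HA) and 48 (AA). Set against the sum of changed and listed tag, it was 0.622% in HB (interval 0.595 to 0.650%) and 0.477% in AB (0.449 to 0.506%), and in WAT 0.417% in HA (0.277 to 0.602%) and 0.428% in AA (0.315 to 0.567%). Next came A17C with 2477 reads in all, A3C with 2476 and T14G with 2248. A3C, the only one of these in the seed, held 0.546% in HB and 0.288% in AB. Sequencing errors and RNA changes cannot be told apart in these files, which hold no base qualities.

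The other miRNAs of the scaffold were set beside miR-3958-3p because hairpins of 1 cluster can share a transcript. They comprise 11 listed miRNAs, of which 3 come from 2 hairpins listed as bat-specific. That label is the study's own and was not checked here against other species. The sequences of the 5 neighbours most abundant in listed tags follow, and with them a bat-specific neighbour that led by first-18-nt tags. The seed is in capitals, and none of these seeds is that of miR-3958-3p.
miR-154-3p: aATCATACatggtagacctgttt
miR-485-3p: gTCATACAcggctctcctctct
miR-432-5p: tCTTGGAGtaggtcattggg
miR-381-5p: aGCGAGGTtgccctttgtat
miR-381-3p: tATACAAGggcaagctctct
bat-specific neighbour, first: aACGTAGAggaaattccacctt
In listed tags, miR-3958-3p took 95.7% of the reads of the 13 scaffold miRNAs (HB), 90.5% (AB), 92.3% (HA) and 85.2% (AA). It exceeded the most abundant neighbour 45.9-fold in HB (miR-154-3p), 23.1-fold in AB (miR-485-3p), 35.5-fold in HA and 11.02-fold in AA (both miR-432-5p). With tags that begin with the first 18 nt, its share was 91.2% (HB), 87.6% (AB), 85.9% (HA) and 77.9% (AA). The most abundant neighbour was then the first bat-specific one in HB, with 26365 reads against 465 in its listed tag (23.7-fold below miR-3958-3p), and miR-432-5p in the other libraries, 25.4-fold below in AB, 11.99-fold in HA and 6.59-fold in AA. miR-3958-3p was the most abundant of the scaffold under both rules, by a margin that depended on the rule.

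All neighbours with a ratio were higher in brain than in WAT, like miR-3958-3p. Of the 8 with a ratio of AB over AA and 10 or more reads, all 8 passed a log2 ratio of 1, which 38.4% of all miRNAs did in this direction, and the median was 3.79. Of the 9 with such a ratio of HB over HA, all 9 passed it, against 40.9% of all miRNAs, with a median of 4.03. miR-154-3p had the largest brain excess of the neighbours in listed tags, with 6977 reads (HB), 7011 (AB), 117 (HA) and 115 (AA), and its log2 ratios of 6.03 (AB over AA) and 5.73 (HB over HA) exceeded those of miR-3958-3p. With first-18-nt tags the first bat-specific neighbour had a larger HB over HA ratio (6.18, interval 6.02 to 6.34). The list was chosen by genome position and not by level, but miR-3958-3p itself was known to be high in brain when it was drawn up.

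Between states the neighbours did not move as 1 group in brain. Of 10 with a ratio of HB over AB, 1 reached a log2 ratio of 1 (22.9% of all miRNAs did) and 3 reached -1 (17.6% did), with a median of -0.28 against 0.51 for miR-3958-3p. The 1 above was miR-432-3p, with only 8 reads in HB and 4 in AB and an interval (-0.89 to 3.19) that held 0. miR-485-3p had 3180 (HB) and 9794 (AB) reads, with a log2 ratio of -1.61, and miR-432-5p had 2048 and 4927 (-1.26). miR-154-3p, at 6977 and 7011 reads, had a log2 ratio of 0.0021. The third below -1, a miRNA listed as bat-specific and printed below, had 46 (HB) and 96 (AB) reads, with a log2 ratio of -1.05. Its direction turned with first-18-nt tags, with 2027 (HB) and 1032 (AB) reads and a log2 ratio of 0.71 (interval 0.60 to 0.82). Under that rule 1 neighbour, miR-485-3p (-1.78), was past -1 and none past 1.
bat-specific neighbour, second: aATATAACacagatggcctattt

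In WAT the neighbours with a ratio were lower in hibernation, with 1 exception. Of 6 with a ratio of HA over AA, 5 had a log2 ratio of -1 or less, against 28.9% of all miRNAs, and the median was -1.47 against -0.41 for miR-3958-3p. miR-432-5p had 188 (HA) and 1014 (AA) reads, with a log2 ratio of -2.10. miR-381-5p had 18 and 88 reads (-1.95) and miR-381-3p 46 and 140 (-1.27), while miR-485-3p had 173 and 532 (-1.28). The exception, miR-154-3p, had 117 and 115 reads, a log2 ratio of 0.36 (interval -0.023 to 0.75), which held 0. When TMM was taken over the conserved miRNAs, 2 of the 6 were past -1 and 1, miR-154-3p (1.14), was past 1. When tags were counted by their first 18 nt, 3 of 8 with a ratio were past -1. The count thus depended on the processing.

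**Figure D5:**
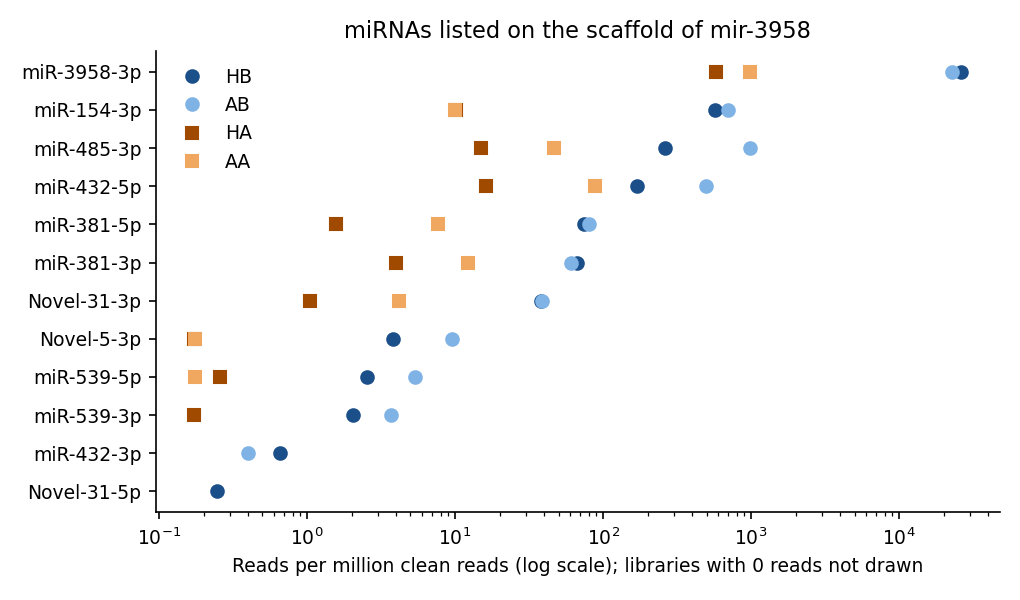
RPM of the listed tags (log x axis) of miR-3958-3p and its 11 scaffold neighbours (rows, 3 of them bat-specific, ordered by level in brain) in the 4 libraries; circles are brain, squares are WAT, and libraries with 0 reads are not drawn. miR-3958-3p lay at 26319 and 22595 in brain and 579 and 977 in WAT, and in each row with reads in WAT the brain libraries lay to the right.

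The miRNA whose pattern over the 4 libraries was nearest to that of miR-3958-3p was miR-544-5p, with 929 reads (HB), 550 (AB), 6 (HA) and 22 (AA). Likeness was the Euclidean distance between centred log2(RPM + 1) values over 4 libraries, 0.23 for miR-544-5p among 129 candidates with 100 or more reads. miR-1298-5p followed at 0.58, with 408 reads in HB, 238 in AB and 0 in both WAT libraries. miR-154-3p of the same scaffold came next at 1.05, then miR-124-5p at 1.09 (211, 143, 0 and 0 reads in HB, AB, HA and AA) and a bat-specific miRNA at 1.17 (1299, 2413, 26 and 103 reads). With 4 points and a pseudocount of 1 RPM that lowers the contrast of scarce miRNAs, the order is a description of these libraries. Scaled by TMM without the pseudocount, miR-544-5p had log2 ratios of 7.10 (HB over HA) and -1.54 (HA over AA). Those of miR-3958-3p were 5.41 and -0.41.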

How the data were processed

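Total RNA of brain and adipose tissue was size-selected on a gel (18 to 30 nt per the labels, with a higher upper bound in the methods of the study) and sequenced on the Solexa platform. No deposited tag lay outside 18 to 30 nt. Low-quality reads and adapters were trimmed away by the authors, who deposited the raw count of every distinct clean tag per library, without normalization. The genome alignment was not used here. Mature sequences, with their names and the conserved or bat-specific label, were taken unchecked from the study's list of miRNAs (119 conserved, 77 bat-specific). Their tags were counted exactly, by the first 18 nt, and by bases 2 to 17. Under the wider rules, miRNAs that share these bases each took all their reads. Ratios were scaled within each pair of libraries by TMM over all listed miRNAs (edgeR 4.0.16 in R 4.3.3). Exact Clopper-Pearson intervals (95%; SciPy 1.17.1) cover counting error only, since PCR copies are not independent molecules, and a count of 0 was given a floor of 3 reads. No ratio was given where both libraries had 3 reads or fewer. Shares of miRNAs past a log2 ratio of 1 required 10 reads over the pair. Arms were paired with RNAduplex (ViennaRNA 2.7.2). Ratios, intervals and scaling were tested on simulated data. Named miRNAs were the arms, the scaffold neighbours, cell type markers, the 5 nearest patterns, the most abundant miRNA of each library and any sharing a seed. miR-363-3p, the miR-92 pair, miR-7b and the 4 miRNAs with a higher tissue ratio were named after their values were seen. Members and lists were chosen with earlier results of these data known. Alternatives were other scalings, count rules and thresholds.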

Additional observations from a re-analysis of the deposited data

Results flagged for a closer look

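The log2 ratio of hibernating over active was positive in brain (0.51) and negative in WAT (-0.41) for miR-3958-3p, and the states thus moved in opposite directions in the 2 tissues. The difference between them was 0.92 on the log2 scale, and with 1 library per condition this difference was not tested. The reads behind it were 320030 (HB), 226127 (AB), 6683 (HA) and 11177 (AA). Under TMM over the conserved miRNAs, WAT turned to 0.37 and the opposite directions were lost.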

How the results depend on the processing

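The scaling moved the ratios of miR-3958-3p by more than counting error. By clean reads, by reads of the listed miRNAs, by the median of ratios (DESeq2 1.42.0), by TMM over the conserved miRNAs, by first-18-nt tags and by tags with bases 2 to 17, the log2 ratio was 0.22, 0.42, 0.50, 0.64, 0.14 and 0.24 for HB over AB, and -0.76, -0.087, -0.16, 0.37, -0.19 and -0.31 for HA over AA. In the same order it was 4.53, 4.33, 4.62, 4.35, 4.37 and 4.37 for AB over AA, 5.51, 4.84, 5.57, 5.51, 4.96 and 4.78 for HB over HA, and 0.98, 0.50, 0.66, 0.27, 0.33 and 0.54 for brain minus WAT. The arm balance in brain, 16.5 ppm of the 5p arm in listed tags, was 32.9 and 34.8 ppm under the wider count rules. The miRNAs past a log2 ratio of 1 numbered 32, 38, 74 and 78 (HB over AB, HA over AA, AB over AA and HB over HA) with a minimum of 100 reads in place of 10, by the smaller number tested, and 21 and 26 past a ratio of 2 in the state pairs. Neighbours past a ratio of 1 in size in HB over AB fell from 4 to 1 with first-18-nt tags, and those in HA over AA from 5 to 3 with these tags and from 5 to 3 with TMM over the conserved miRNAs. One bat-specific neighbour (46 and 96 reads) changed sign to 0.71 in HB over AB with first-18-nt tags. The causes were not tested. Of the other values, 19 main results and 69 values of single miRNAs stayed within their counting interval or 1.5 times the count, and 29 values of single miRNAs moved, of which 25 kept their sign. The other 4, all in HB over AB, were miR-154-3p (-0.29), miR-381-5p (-0.11) and a bat-specific miRNA (-0.0086) by clean reads, and miR-381-5p (-0.25) by first-18-nt tags. No paired analysis was possible because each condition had 1 library, and for the same reason no library could be left out. Depth limits the 5p arm, with 9 reads in all, and the WAT values of most neighbours.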

Other observations

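A form of miR-3958-3p with 2 bases missing near the 5′ end, looked for after its reads were seen, had 1508 (HB), 888 (AB), 51 (HA) and 50 (AA) reads. Tags complementary to bases 2 to 17 of either arm had 0 reads in all 4 libraries, where a count of 0 was given a floor of 3 reads. The scaffold neighbours miR-381-3p and miR-539-3p had the same seed. Their sequences, with the seed in capitals, follow.
miR-381-3p: tATACAAGggcaagctctct
miR-539-3p: cATACAAGgacaatttcttttt
miR-381-3p had 806 (HB), 608 (AB), 46 (HA) and 140 (AA) reads, against 25, 37, 2 and 0 for miR-539-3p, so in these libraries the reads of this seed came almost wholly from miR-381-3p.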
